A study of Mus musculus with 35 samples.

Results

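Of 35 single cells labelled as mouse embryonic fibroblasts, the 10 with the highest and the 10 with the lowest expression of 6 collagen and collagen-linked genes were compared, and the 15 cells between them were kept as a reference. Each cell was scored by summing log2(CPM + 1) over Col1a1, Col1a2, Col3a1, Col5a1, Col5a2 and Sparc, where CPM is a gene's read count per 1000000 reads on genes in that cell, with spike-in RNAs left out. The 10 highest cells are called collagen-rich here and the 10 lowest collagen-poor. The sides were chosen on measured values, so the 6 ranking genes are described but are no result, and no p-value is given for any gene.

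Fibroblasts make the fibrillar collagens of connective tissue. Type I collagen is built from the chains of Col1a1 and Col1a2, type III from Col3a1 alone, and type V, whose chains include those of Col5a1 and Col5a2, sits in type I fibrils and sets where they start and how thick they grow. Procollagen chains are hydroxylated and folded in the endoplasmic reticulum, carried to the Golgi, secreted, trimmed, assembled into fibrils and cross-linked by lysyl oxidases. Sparc encodes a secreted protein that binds collagen.

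All 35 cells were labelled embryonic fibroblasts (MEFs) of strain C57Bl/6J, cultured at 3% oxygen and given 1 Gy of ionising radiation, so no unirradiated cell serves as a baseline. They were reseeded on membrane dishes 32 h after the dose, stained with the DNA dye PicoGreen at 48 h and cut out singly by laser, and polyadenylated RNA was amplified by Smart-seq2, a full-length method without molecular identifiers. The study compared 21 cells with micronuclei, small chromatin bodies outside the main nucleus, with 14 cells without them. No culture, embryo or animal is named for any cell, so cells are not replicates of a condition, and each side counts as 1 sample with no replicate check. Numbers such as micronucleated cell 6 only name a cell.

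The score ran from 60.2 to 66.3 (median 61.3) in collagen-rich cells, from 51.3 to 59.9 (median 56.3) in the cells between, and from 21.2 to 50.1 (median 45.5) in collagen-poor cells. The boundaries did not fall in gaps. The last cell inside the collagen-rich side, micronucleated cell 2, scored 60.18, and the first outside, cell without micronuclei 2, scored 59.94. On the other side, micronucleated cell 15 scored 50.10 inside and micronucleated cell 20 scored 51.28 outside. Collagen-rich cells thus differed little among themselves, while collagen-poor cells were spread out, with micronucleated cells 19, 11 and 6 at 37.81, 35.47 and 21.19.

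Col3a1 carried the largest share of the score difference between the sides, 36.3%, followed by Col5a1 with 22.1%, Col1a2 with 14.7%, Col1a1 with 10.8%, Col5a2 with 9.37% and Sparc with 6.71%. Col3a1 ranged from 110 to 595 CPM (median 216) in collagen-rich cells. It was at 0 in 8 of 10 collagen-poor cells and reached 32.4 CPM in the highest of them. It was above 0 in all 15 cells between, at 22.5 to 495 CPM (median 87.7). Col5a1 ranged from 217 to 1587 CPM (median 566) on the rich side and from 0 to 709 CPM (median 34.5) on the poor side, where 3 cells had no read. Col1a1 did not drop out: its range was 2357 to 6687 CPM (median 3899) in collagen-rich cells and 261 to 2764 CPM (median 942) in collagen-poor cells. Sparc separated the sides least, and 6 collagen-poor cells lay above the lowest collagen-rich cell. All collagen-poor cells thus kept Col1a1 and Sparc reads, and what set them apart most was the lack of Col3a1 and low Col5a1. With Col3a1 left out of the score, 7 of the 10 collagen-poor and 8 of the 10 collagen-rich cells stayed on their side. Collagen-poor here does not mean low in every collagen. Micronucleated cell 21 of the poor side held 2752 CPM of Col1a1 and 1465 CPM of Col5a2, which in collagen-rich cells reached 1405 CPM.

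**Figure D1:**
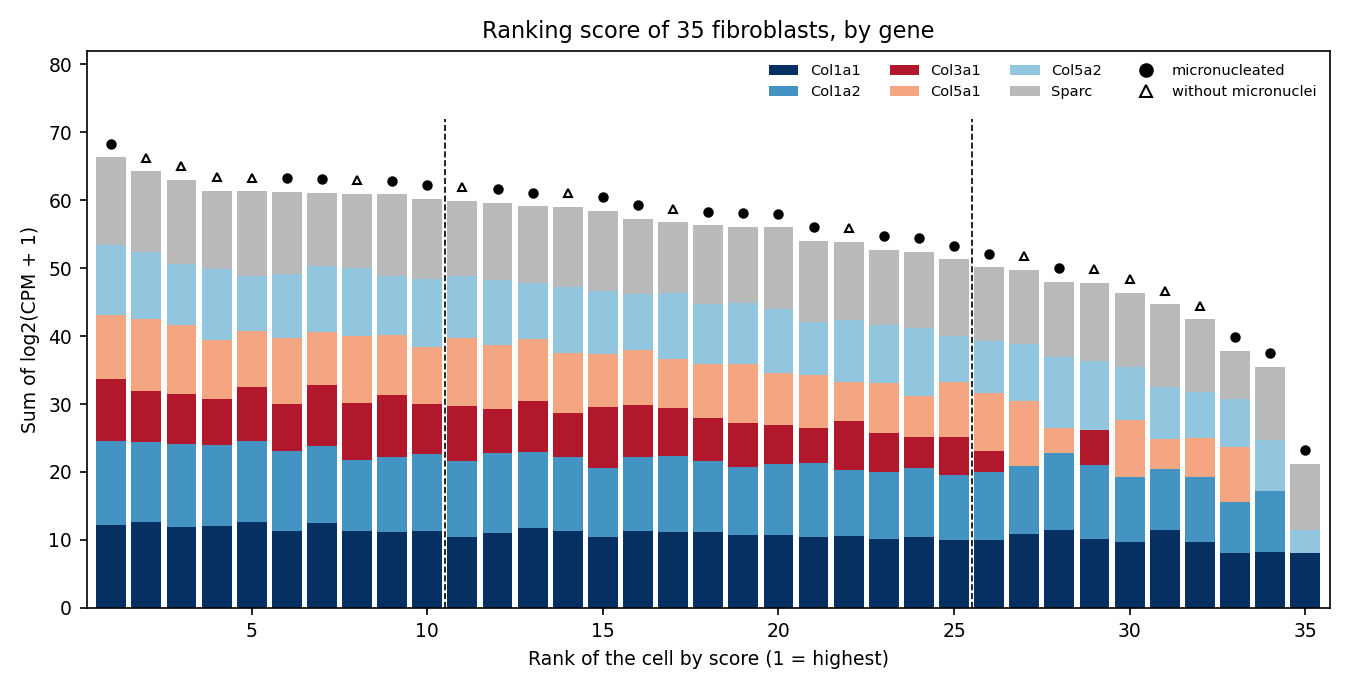
Ranking score of each of the 35 cells in order, stacked by gene as log2(CPM + 1), with the micronuclei label above each bar and dashed lines at the 2 boundaries. The Col3a1 segment is present in all 25 cells to the left of the second line and missing in 8 of the 10 cells to its right.

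Promoter sequence is shown for the 2 genes that contributed most to the ranking, because their upstream regions differ in composition. Each line gives 250 bases directly upstream of the annotated RefSeq start (GRCm38.p6), read 5′ to 3′ on the gene's strand. Col3a1 lies at chr1:45311288-45311537 on the plus strand and Col5a1 at chr2:27886175-27886424 on the plus strand. Capitals mark matches to TATAAA or GGGCGG on either strand.
Col3a1: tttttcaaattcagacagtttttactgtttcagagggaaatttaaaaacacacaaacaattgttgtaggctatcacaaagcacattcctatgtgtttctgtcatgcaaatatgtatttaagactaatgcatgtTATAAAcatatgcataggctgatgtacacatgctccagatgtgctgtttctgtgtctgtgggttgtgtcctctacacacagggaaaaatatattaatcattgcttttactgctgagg
Col5a1: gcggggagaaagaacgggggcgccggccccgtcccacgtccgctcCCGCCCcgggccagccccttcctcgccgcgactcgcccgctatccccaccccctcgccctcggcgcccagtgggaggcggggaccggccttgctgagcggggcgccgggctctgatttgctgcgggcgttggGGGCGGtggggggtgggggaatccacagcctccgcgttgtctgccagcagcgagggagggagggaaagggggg
The Col3a1 window is 35.2% G or C and holds 1 match to TATAAA and 0 to GGGCGG. The Col5a1 window is 76.4% G or C and holds 2 matches to GGGCGG and 0 to TATAAA. Neither holds CCAAT, the third motif searched on both strands. Of 32851 promoter windows of the same length, 12.4% held TATAAA, 32.7% GGGCGG and 33.8% CCAAT, and the median G or C content was 52.4%. These matches describe the letters of the windows only.

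The micronuclei label was split evenly on both sides. Of the collagen-rich cells 5 of 10 were micronucleated (50%, 95% exact Clopper-Pearson interval 18.7 to 81.3), and of the collagen-poor cells also 5 of 10 (50%, 18.7 to 81.3). The split moved somewhat with the ranking. It was 4 and 5 of 10 with Col3a1 left out of the score, and 6 and 7 of 10 when cells were ranked by summed CPM. Among the cells between, 11 of 15 were micronucleated (73.3%, 44.9 to 92.2). These intervals, like all intervals given here, cover counting error only. The median score was 56.12 in the 21 micronucleated cells (SD 10.4, range 21.2 to 66.3) and 57.91 in the 14 cells without micronuclei (SD 7.49, range 42.5 to 64.3). The 3 lowest cells of all were micronucleated.

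Library depth overlapped between the sides, but fewer genes were seen in collagen-poor cells. Reads on genes numbered 119337 to 2023111 per collagen-rich cell (median 390078) and 57514 to 1418800 per collagen-poor cell (median 682572), and summed to 6944362 and 7115328. Genes with a read numbered 3926 to 8964 (median 5878.5) in collagen-rich and 2391 to 8229 (median 5096.5) in collagen-poor cells. After thinning to 100000 reads, which left out 1 collagen-poor cell, the medians were 5091 and 3752 genes. The cells between had more than either side, with a median of 7019 genes, and of 6499 in the 12 left after thinning. The number of genes was thus not graded along the ranking. Spike-in RNA took 0.161% to 7.39% of reads (median 1.40%) on the rich side and 0.327% to 6.38% (median 2.44%) on the poor side. Micronucleated cell 6, the lowest of all by score, also had the fewest genes, 2391, and micronucleated cell 21 followed with 3097. A gene that is seen in few collagen-poor cells therefore moves together with the number of genes seen, and the part this plays in any single ratio was not tested.

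The 9 fibroblast markers summed to 4849 to 10503 CPM (median 7048) in collagen-rich cells and to 3340 to 12336 CPM (median 6194) in collagen-poor cells. Vim, S100a4 and P4hb were read in all 20 of these cells, while narrower markers were sparse or uneven: at least 5 reads were found in 0 and 1 cells for Lum, in 1 and 2 for Pdgfra and in 7 and 2 for Dcn. Micronucleated cell 6 had 0 reads of Thy1 and of Fn1. Macrophage markers summed to 0 in 7 of 10 cells on each side, reaching 67.4 CPM in a collagen-rich cell and 1452 CPM in micronucleated cell 6. In that cell the reads were of Csf1r, while Ptprc, Adgre1, Tyrobp and C1qa had 0 reads on both sides. Among the cells between, micronucleated cell 10 had reads of 16 of the 18 macrophage markers. Their sum was 17477 CPM, against at most 494.8 CPM in the other 14. These reads went against its fibroblast label, but it held fibroblast transcripts as well. Its fibroblast marker sum was 5466 CPM, with 2542 CPM of Col1a1 and 2040 CPM of Sparc, and its cell type was not tested. Without this cell the summed CPM of the cells between moved over 1.5 times for 6 of 161 named genes. None of these 6 has its value in the cells between given here. The epithelial keratin gene Krt19 was called lower, at 18 against 63.1 CPM (-1.75). The highest sums in a cell of the rich and of the poor side were 33.4 and 327 CPM for endothelial, 163 and 409 CPM for epithelial, 639 and 549 CPM for neural, 75.6 and 134 CPM for adipocyte, 479 and 184 CPM for chondrocyte and 6.84 and 0.736 CPM for erythroid markers. Skeletal muscle markers reached 6445 and 5274 CPM and osteoblast markers 4129 and 1840.3 CPM, each with overlapping sides. The 8 pericyte and smooth muscle genes summed to 14.8 to 802 CPM (median 536) in collagen-rich cells and to 4.54 to 417 CPM (median 180) in collagen-poor cells, and 6 collagen-rich cells lay above the highest collagen-poor cell. This list moves with the sides, and its part in the results below was not tested.

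Values are given below as the summed CPM of a side, as the lowest, median and highest CPM among its cells, and as the log2 ratio log2((summed CPM rich + 1)/(summed CPM poor + 1)). A gene was called higher or lower only if this ratio was past 1 (2-fold) in the summed reads, with equal weight for every cell, and whichever 1 of the 20 cells was left out. Among 8384 measured genes besides the 6 ranking genes, 695 (8.29%) were called higher in collagen-rich cells and 729 (8.7%) lower. Without micronucleated cell 6 these numbers were 702 and 716, and without the 4 cells of the sides with under 4000 genes they were 740 and 638. Cell without micronuclei 7 held 2023111 of the 6944362 reads of the rich side and so weighs most in its sums. The balance depends on how cells are weighted, since equal weights alone gave 1010 and 543. The median log2 ratio over all measured genes was -0.14 in summed reads and 0.023 with equal weights. It was 0.45 in the 5 against 5 micronucleated cells and -0.57 in the 5 against 5 cells without micronuclei, so medians of lists within a label are to be read against these. For 0 of the 8384 genes did the 2 sides not overlap.

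Some matrix genes outside the ranking were called higher in collagen-rich cells, and most members of these lists did not pass the call. Counts within this and the later lists are to be read against all measured genes, of which 8.29% were called higher and 8.7% lower. No list was tested against these shares. Of 4 measured minor fibrillar and fibril-associated collagens, 2 were called higher and 0 lower, and the median log2 ratio was 3.35. Col5a3, the third chain of type V collagen, was at 102 CPM in collagen-rich cells (95% exact Poisson interval 94.6 to 110) and at 0.281 CPM (0.034 to 1.02) in collagen-poor cells. Only 4 collagen-rich cells held at least 5 reads of it, and micronucleated cell 13 gave 79.2% of the reads. Col16a1, which encodes a collagen found on the surface of other fibrils, was at 13.8 CPM against 0.703 CPM (log2 ratio 3.12), and 7 collagen-rich cells lay above the highest collagen-poor cell. Col11a1, at 163 against 12.8 CPM, was not called, since cell without micronuclei 5 alone held 89.3% of the rich reads and without it the ratio was 0.63.

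Of 8 measured network, beaded and other collagens, 2 were called higher, 0 lower, 4 had a ratio above 0 and 4 below, and the median was 0.54. Col4a1, a basement membrane collagen, was read in all 10 collagen-rich cells at 270 to 1666 CPM (median 618) and in collagen-poor cells at 0 to 624 CPM (median 44.9). All 10 collagen-rich cells lay above the median of the poor side, and 7 collagen-poor cells lay below the lowest collagen-rich cell. Its log2 ratio was 1.83, with 674 CPM in collagen-rich cells, 478 CPM in the cells between and 189 CPM in collagen-poor cells. Col4a2, which shares its promoter region with Col4a1 and is read from the other strand, was at 400.3 against 166 CPM (log2 ratio 1.26) and missed the call at 0.94 without cell without micronuclei 8. The annotated genes overlap by 22 bases on chromosome 8. Col6a3, a chain of the beaded type VI collagen, was at 322 CPM in collagen-rich cells, 127 CPM between and 54.2 CPM in collagen-poor cells (2.55), and micronucleated cell 13 gave 74.5% of the rich reads. Col6a1 was at 470.0 against 216 CPM (1.12) and was not called.

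Of 36 measured glycoproteins, matricellular proteins and fibre components, 4 were called higher and 0 lower, with a median ratio of 0.43. Fn1 encodes fibronectin, the scaffold on which collagen fibrils are laid down, at chr1:71585520-71653200 on the minus strand (GRCm38). It ranged from 1118 to 3345 CPM (median 1823) in collagen-rich cells, from 304 to 2537 CPM (median 1244) in the cells between and from 0 to 1664 CPM (median 575) in collagen-poor cells. No collagen-poor cell reached the median of the rich side, and 8 of 10 lay below its lowest cell. The summed values were 2007 CPM (1974 to 2041) and 703 CPM (684 to 723), a log2 ratio of 1.51 that stayed between 1.25 and 1.798 over the leave-outs. Nid1, which encodes nidogen, the linker of laminin and type IV collagen, was at 157 to 3612 CPM (median 541) against 0 to 925 CPM (median 200). Its log2 ratio of 1.88 dropped to 1.06 without cell without micronuclei 5, which held 51.5% of the rich reads.

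The other called members were sparse. Mfap4, a microfibril-associated protein, had no read in any collagen-poor cell and 35.1 CPM in collagen-rich cells, which is at least 83.3-fold higher when the poor side is set to 3 reads in all, and micronucleated cell 2 supplied 84.0% of them. Lama4, a laminin chain, was at 7.2 against 1.41 CPM (1.77) and its ratio in the 5 against 5 cells without micronuclei was -0.039. Postn, which encodes periostin, did not separate the sides, at 1.67 to 1668 CPM (median 256) in collagen-rich and 0 to 1087 CPM (median 245) in collagen-poor cells (0.03). Taken as a sum per cell, the 40 listed genes with reads were at 18806 to 33588 CPM (median 27320) in collagen-rich and 1752 to 22944 CPM (median 14474) in collagen-poor cells, and 7 collagen-rich cells lay above every collagen-poor cell. Thbs1 (thrombospondin), the most abundant of them and named for that after its values were seen, was at 3654 to 16905 CPM (median 6396) against 163 to 9438 CPM (median 2952), a log2 ratio of 1.41 that was not called, its smallest value being 0.91.

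**Figure D2:**
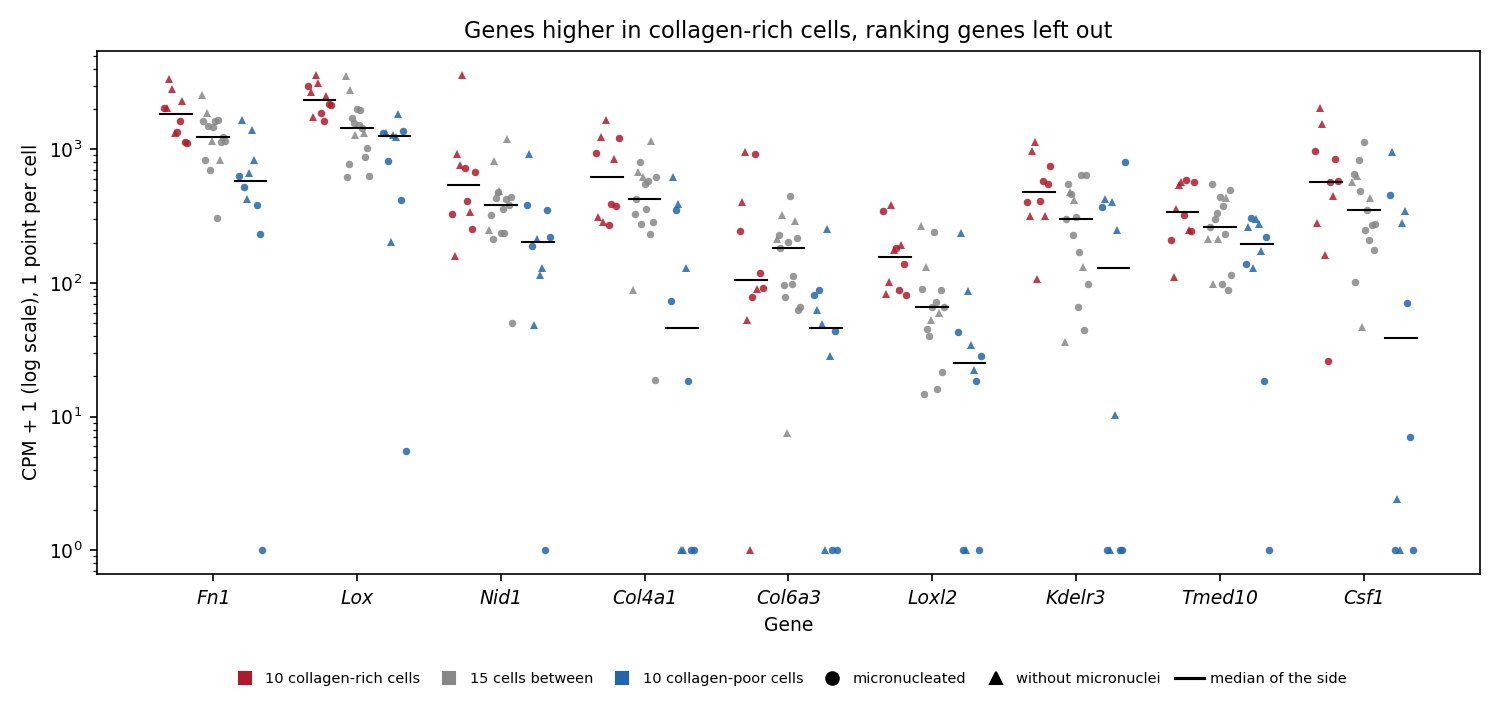
CPM + 1 on a log axis for 9 genes called higher in collagen-rich cells, with 1 point per cell, circles for micronucleated cells, triangles for cells without micronuclei and bars for the median of each side. The cells between lie between the sides by median for Fn1, Lox, Nid1, Col4a1, Loxl2, Kdelr3, Tmed10 and Csf1, and above the rich median for Col6a3.

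Collagen-modifying enzymes and chaperones were taken as 1 list. Of its 27 measured genes, 5 were called higher and 1 lower, and the median ratio was -0.08. Summed per cell the list was at 4769 to 9167 CPM (median 6870) in collagen-rich cells. In collagen-poor cells it was at 763 to 8896 CPM (median 5239), and 9 collagen-rich cells lay above that median. Only 1 lay above every collagen-poor cell, but without the cells under 4000 genes 8 of 9 did. Lox, the lysyl oxidase that starts cross-linking, was at 1628 to 3627 CPM (median 2336) in collagen-rich cells and at 4.54 to 1842 CPM (median 1264) in collagen-poor cells, with 9 of the latter below the lowest collagen-rich cell. Its log2 ratio was 1.28, from 1.02 to 1.46 over the leave-outs. The related oxidases Loxl1 (539 against 178 CPM, 1.597) and Loxl2 (205 against 51.4 CPM, 1.97) were also called higher, and all 10 collagen-rich cells lay above the poor median for Loxl2. Tram2, a translocation protein known to be needed for type I collagen synthesis, was at 381 against 83.6 CPM (2.18). P4ha3, a prolyl hydroxylase subunit, was at 189 against 29.2 CPM (2.65) and was read in 8 collagen-rich and 3 collagen-poor cells at 5 reads or more.

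Serpinh1, which encodes the collagen chaperone HSP47, was at 134 to 536 CPM (median 395) in collagen-rich cells and 18.2 to 1765 CPM (median 295) in collagen-poor cells (log2 ratio -0.23). P4hb, the shared subunit of the prolyl hydroxylases, was at 285 to 1812 CPM (median 669.9) against 104 to 1227 CPM (median 637) (-0.40). For both genes the sign of the ratio changed with a leave-out or with equal weights. Colgalt1, which adds galactose to hydroxylysine, was the 1 gene called lower, at 98.2 against 317 CPM (-1.68).

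Of 39 measured genes of the secretory pathway, 4 were called higher and 1 lower, with a median ratio of 0.22. Kdelr3, a receptor that returns chaperones from the Golgi, was at 106 to 1129.5 CPM (median 479) against 0 to 808 CPM (median 129), with 658 and 194 CPM summed (1.76). Tmed10, a cargo receptor of transport vesicles, was at 109 to 589 CPM (median 339) against 0 to 307 CPM (median 195), with a ratio of 1.20 that hardly depended on any cell (1.07 to 1.35). Lman1, a cargo receptor of the endoplasmic reticulum, was at 284 against 82.9 CPM (1.76), and Creb3l2, a membrane-bound transcription factor of secretory genes, at 19.9 against 5.62 CPM (1.66). Sar1b, the small GTPase that starts COPII coats, was called lower at 61.3 against 248.9 CPM (-2.003), but its mean log2 CPM per cell differed by 0.20 in the other direction. Of 22 measured chaperones and unfolded protein response genes, 0 were called in either direction and the median was -0.02. The members nearest the call were Dnajb9 (151 against 48.1 CPM, 1.63), Manf (669 against 295 CPM, 1.18) and Atf4 (77.0 against 184 CPM, -1.25).

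Proteoglycans did not separate the sides by their sum, while proteases and their inhibitors did in most cells. Of 14 measured proteoglycan and hyaluronan genes, 2 were called higher and 1 lower (median 0.78). Dcn, which encodes decorin, a small proteoglycan that coats collagen fibrils, was at 442 against 74.9 CPM (2.55). It was seen with 5 reads in 7 collagen-rich and 2 collagen-poor cells, and its per-cell range of 0 to 1098 CPM (median 37.1) overlapped that of collagen-poor cells, 0 to 324 CPM (median 0). Fmod, its relative fibromodulin, was at 24.9 against 1.83 CPM (3.20). Has2, a hyaluronan synthase, was lower at 1.58 against 40.8 CPM (-4.01), with 89.0% of the poor reads in micronucleated cell 11. Summed per cell the list was at 4045 to 9729.6 CPM (median 5976) in collagen-rich and 922 to 9968 CPM (median 6032) in collagen-poor cells, and 2 collagen-poor cells lay above every collagen-rich cell. Among cells without micronuclei all 5 collagen-poor cells lay above the rich median, and among micronucleated cells 0 of 5 did.

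Of 22 measured proteases and inhibitors, 3 were called higher and 0 lower (median 0.64). Mmp2, a gelatinase, was at 241 against 17.8 CPM (3.68), but only 4 cells on each side held 5 reads. Adam12, a membrane protease of mesenchymal cells, was at 37.7 against 6.89 CPM (2.30) with 9 collagen-rich cells above the poor median. Adam10, a sheddase, was at 512 against 183 CPM (1.48), with a ratio of -0.18 among micronucleated cells alone. As a sum per cell the list was at 5006 to 18065 CPM (median 10359) in collagen-rich and 1165 to 7463 CPM (median 5842) in collagen-poor cells. In 9 of 10 collagen-rich cells the sum was above that of every collagen-poor cell, and without the cells under 4000 genes in 8 of 9. Timp1, the most abundant member and an inhibitor of matrix metalloproteinases, was at 706 to 8076 CPM (median 3981) against 296 to 2791 CPM (median 2053), while its summed ratio was 0.36.

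TGF-beta is the best-known inducer of collagen genes in fibroblasts. Of 24 measured genes of its pathway, 1 was called higher and 2 lower (median 0.13). The ligand gene Tgfb2 had 0 reads in collagen-poor cells and 45.1 CPM in collagen-rich cells, at least 107-fold higher with the poor side set to 3 reads, with 5 reads in 4 cells. The signal transducer Smad3 was at 0.864 against 27.0 CPM (-3.91) and the inhibitory Smad6 at 0.432 CPM (0.0891 to 1.26) against 12.8 CPM (10.3 to 15.7), both sparse, with 5 reads in at most 2 cells of a side. Summed per cell the list was at 4430 to 11440.2 CPM (median 7186) against 2791 to 7507 CPM (median 4162), all 10 collagen-rich cells above the poor median. Its most abundant member, the activin chain gene Inhba, was at 1012 to 6895 CPM (median 2543) against 222 to 3724 CPM (median 1261) and was not called (0.82).

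**Figure D3:**
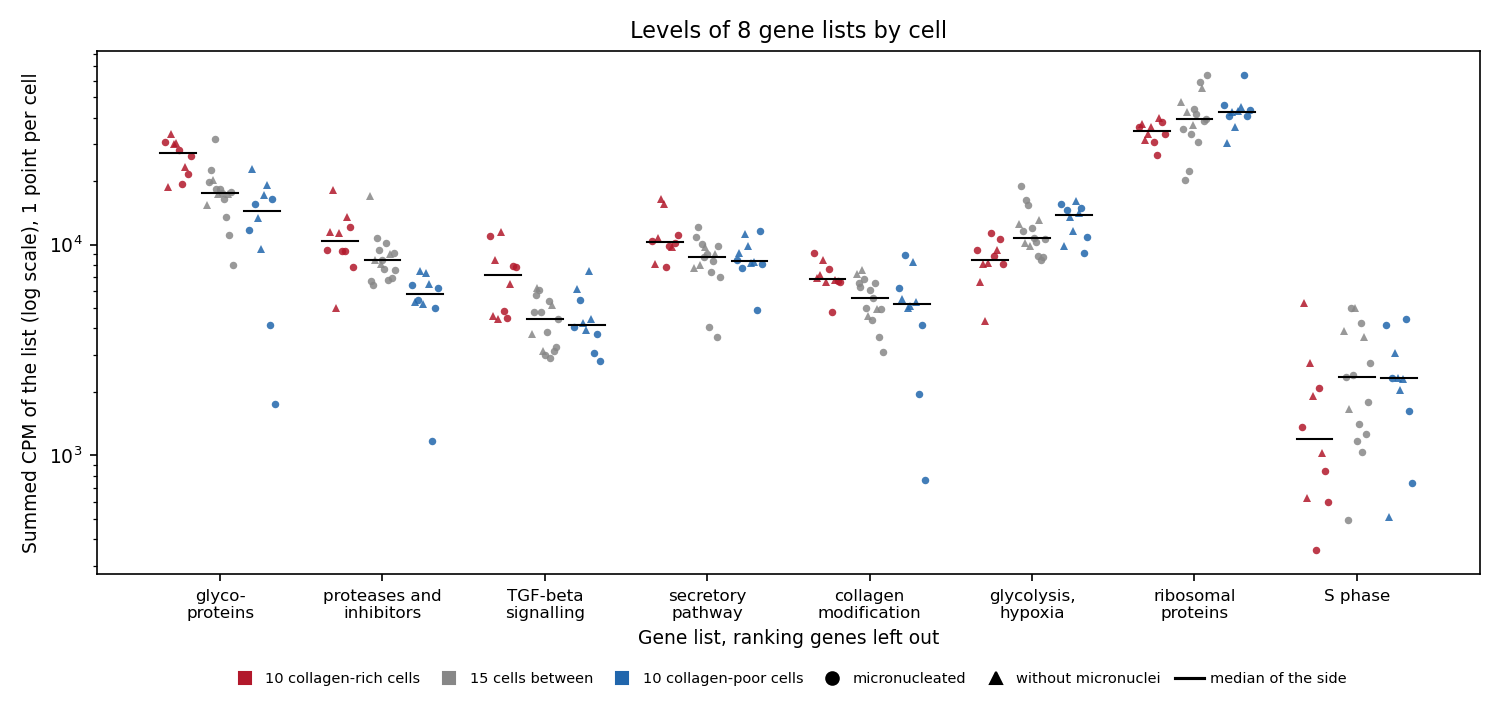
Summed CPM of 8 gene lists in each cell on a log axis, with ranking genes left out and symbols as for single genes. By median, collagen-rich cells are higher for glycoproteins (27320 against 14474 CPM), proteases and inhibitors (10359 against 5842 CPM) and collagen modification (6870 against 5239 CPM). They are lower for glycolysis (8495 against 13819 CPM). The ranges of the sides overlap for each of these lists.

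Few fibroblast surface genes and contractile genes passed the call. Of 24 measured surface proteins and receptors, 1 was called higher and 1 lower (median 0.00). Thy1 was at 192 against 242 CPM (-0.34), Vim at 2134 against 2775 CPM (-0.38), S100a4 at 701 against 1189 CPM (-0.76) and the PDGF receptor gene Pdgfrb at 16.3 against 38.9 CPM (-1.21), none of them called. Pdgfra was called lower at 1.73 against 12.8 CPM (-2.34), from 1 and 2 cells with 5 reads, and Ly6c1, a surface antigen, called higher at 9.07 CPM against 0 reads, at least 21.5-fold. Of 22 measured mesenchymal transcription factors, 0 were called higher and 2 lower (median -0.28), the repressor Zeb2 (4.75 against 24.5 CPM, -2.15) and the limb and trunk factor Osr1 (2.88 against 22.8 CPM, -2.61).

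Of 24 measured contractile genes and YAP targets, 1 was called higher and 0 lower (median 0.16). Acta2, smooth muscle actin and the usual marker of activated fibroblasts, was at 2175 to 11010.1 CPM (median 6542) in collagen-rich and 346 to 16513 CPM (median 3657) in collagen-poor cells, a ratio of 0.32. Ctgf, a matricellular target of YAP and TGF-beta, was at 1221 against 492 CPM (1.31) and missed the call at 0.97. Lmod1, an actin nucleator of smooth muscle, was called higher at 113 against 37.1 CPM (1.58), with a ratio of -0.054 among cells without micronuclei alone. Actb was at 57335 against 46687 CPM (0.30).

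The summed level of glycolysis and hypoxia genes was lower in collagen-rich cells, although most members did not pass the call. Of 23 measured genes, 3 were called lower and 1 higher, 17 had a ratio below 0, and the median ratio was -0.81 against -0.14 over all measured genes. Tpi1, the triose phosphate isomerase at chr6:124810586-124814296 on the minus strand, was at 0 to 698 CPM (median 449) in collagen-rich cells, 344 to 1156 CPM (median 587) in the cells between and 318 to 1348 CPM (median 795) in collagen-poor cells. Of the collagen-poor cells 9 of 10 lay above the median of the rich side and 0 of 10 collagen-rich cells above the median of the poor side, with a ratio of -1.66. Hk1, a hexokinase, was at 0.72 against 21.1 CPM (-3.68), and Bnip3, a hypoxia-induced mitochondrial protein, at 17.7 against 125 CPM (-2.75). Car9, a hypoxia-induced carbonic anhydrase, went the other way with 6.91 CPM against 0 reads, at least 16.4-fold higher, 77.1% of it in cell without micronuclei 12.

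Summed per cell the glycolysis list was at 4317 to 11292 CPM (median 8495) in collagen-rich cells, 8490.25 to 19035 CPM (median 10800.0) between and 9150 to 16153 CPM (median 13819) in collagen-poor cells. All 10 collagen-poor cells lay above the rich median, 7 lay above every collagen-rich cell, and 6 collagen-rich cells lay below every collagen-poor cell. Among cells without micronuclei alone the 5 and 5 cells did not overlap, at 4317 to 9463 against 9795 to 16153 CPM, while among micronucleated cells 3 of 5 collagen-poor cells lay above every collagen-rich cell. Such a split of 5 and 5 cells was not particular to glycolysis. Among micronucleated cells it was also found for the glycoprotein list, for proteases and inhibitors and, in the other direction, for ribosomal protein genes. The most abundant member, the lactate dehydrogenase gene Ldha, was at 1218 to 2913 CPM (median 2034) against 1094 to 5849.8 CPM (median 3575), a log2 ratio of -0.87 with 7 collagen-poor cells above every collagen-rich cell.

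Few mitochondrial and no ribosomal protein genes passed the call, although some of these lists had a higher sum in collagen-poor cells. Of 42 measured nuclear genes of oxidative phosphorylation, 0 were called, 18 had a ratio above 0 and 24 below, and the median was -0.12, close to that of all measured genes. Their sum per cell was 11866 to 16251 CPM (median 14944) in collagen-rich and 10364 to 20625 CPM (median 17060.3) in collagen-poor cells, and 7 of the latter lay above every collagen-rich cell. Cox4i1 (-0.62), Atp5b (-0.81) and Sdhb (-0.91) came nearest to the call. Of 8 measured mitochondrially encoded genes, 4 had a ratio above 0 and 4 below, and 1 was called, mt-Co1, a subunit of complex IV, lower at 76.9 to 2465 CPM (median 548) against 0 to 5694 CPM (median 1189), a ratio of -1.56. The mitochondrial genes mt-Nd2 (1597 against 686 CPM, 1.22) and mt-Nd6 (730.4 against 289.9 CPM, 1.33) were higher in summed reads and not called. Mdh2, the mitochondrial malate dehydrogenase, was at 92.9 to 864 CPM (median 497) against 538 to 2738 CPM (median 1066), and all 10 collagen-poor cells lay above the rich median (-1.41).

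Of 50 measured ribosomal protein genes, 0 were called and 38 had a ratio below 0 (median -0.25). Their sum per cell was 26527 to 39988 CPM (median 34747) in collagen-rich and 30355 to 63689 CPM (median 42714) in collagen-poor cells, with 8 of the latter above every collagen-rich cell. Rplp0 was at 949.8 to 2623 CPM (median 1596.5) against 1616 to 5062 CPM (median 2915) and all 10 collagen-poor cells lay above the rich median, but its smallest ratio was -0.82. Rps6 (270 against 638 CPM, -1.24) and Rpl3 (357 against 721 CPM, -1.01) also missed the call. Processed copies of ribosomal protein and glycolysis genes lie elsewhere in the genome and could share their reads.

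**Figure D4:**
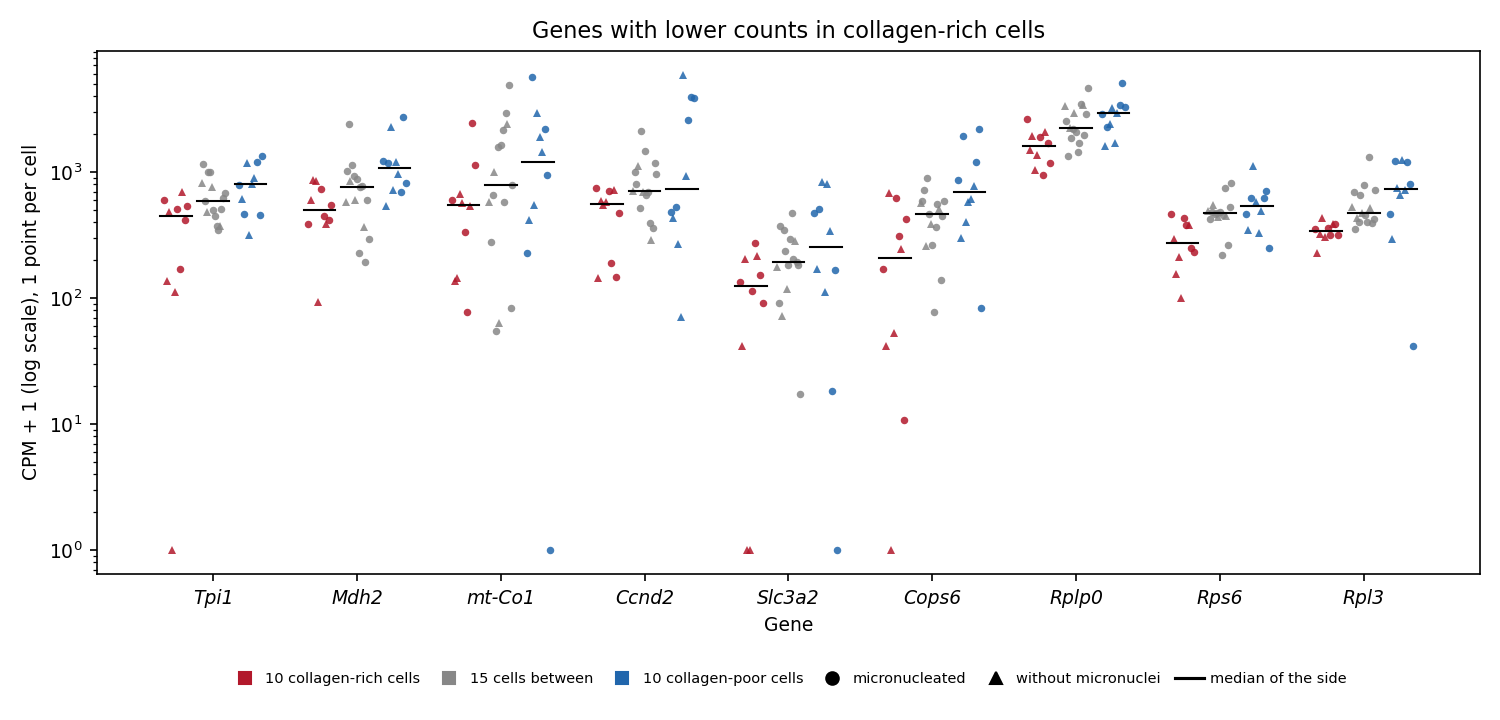
CPM + 1 on a log axis for 9 genes with lower counts in collagen-rich cells, of which Tpi1, Mdh2, mt-Co1, Ccnd2, Slc3a2 and Cops6 were called and Rplp0, Rps6 and Rpl3 were not. For Mdh2 and Rplp0 all 10 collagen-poor cells lie above the median of the rich side.

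More S phase genes were called lower than higher in collagen-rich cells. Of 37 measured S phase genes, 8 were called lower and 1 higher, 26 had a ratio below 0 and 11 above (median -0.76), and the 1 broadly read member had a ratio of 0.80. Nasp, a histone chaperone, was at 0 to 137 CPM (median 11.04) against 0 to 305 CPM (median 85.1), with 9.22 and 108 CPM summed (-3.42) and 8 of 10 collagen-poor cells above the rich median. Chaf1a, a chromatin assembly factor subunit, was at 0.288 CPM (0.0349 to 1.04) against 90.2 CPM (83.4 to 97.5), with 92.1% of the poor reads in cell without micronuclei 8. Mcm10, a replication initiation factor, was called higher at 6.77 CPM (4.97 to 9.0) against 0.422 CPM (0.0869 to 1.23), from 2 cells. The summed list was at 355 to 5288 CPM (median 1191) in collagen-rich and 507 to 4416 CPM (median 2321) in collagen-poor cells, so the ranges overlapped almost fully.

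Of 42 measured G2M genes, 2 were called higher and 3 lower, and 30 had a ratio above 0. The median was 0.36 in summed reads and -0.19 with equal weights. It was above 0 in 31 of 36 settings, but all except 16 of these settings only leave out 1 cell. Among micronucleated cells alone the median was 1.09 and among cells without micronuclei -0.76. Summed per cell the list did not separate the sides, at a median of 1526 CPM in collagen-rich and 1517 CPM in collagen-poor cells. Mki67, the proliferation marker, was at 0 to 60.2 CPM (median 0) against 0 to 243 CPM (median 1.18), with 4.32 and 20.9 CPM summed (-2.04), and was highest in the cells between (71.9 CPM). Plk1, a mitotic kinase, had 0 reads in collagen-rich cells and 140.4 CPM in collagen-poor cells, at least 325-fold lower, of which 90.7% came from cell without micronuclei 8. Ndc80, a kinetochore protein, also had 0 reads in collagen-rich cells and was at least 20.2-fold lower, with 82.3% of the poor reads in cell without micronuclei 10. Ccnb2, a mitotic cyclin, was at 41.9 CPM (37.2 to 47.01) against 0.141 CPM (0.00356 to 0.783), with 89.3% in micronucleated cell 13, and Cdca3 was at 12.8 against 1.41 CPM (2.52).

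The G1 regulators Ccnd2 and Cdkn2b were called in opposite directions. Ccnd2, a D-type cyclin, was at 144 to 746 CPM (median 561) in collagen-rich cells, 289 to 2120.5 CPM (median 705) between and 69.9 to 5932 CPM (median 728) in collagen-poor cells (-1.71), and 42.3% of the poor reads came from micronucleated cell 11. Cdkn2b, the CDK inhibitor p15 and a TGF-beta target, was at 0 to 328 CPM (median 156) against 0 to 49.6 CPM (median 0), with 155 CPM in collagen-rich, 23.2 CPM in the cells between and 5.34 CPM in collagen-poor cells (4.62). Of the collagen-rich cells 7 lay above every collagen-poor cell. Of 24 measured p53 targets, 0 were called higher and 1 lower (median 0.06). Behind this median stood 1.47 among micronucleated cells and -1.18 among cells without micronuclei, and the difference between the labels was not tested. Cdkn1a, the p21 inhibitor induced by radiation, was at 174 to 4517 CPM (median 1598) against 328 to 3161 CPM (median 1467) (-0.11). Mdm2 was at 71.0 against 206 CPM (-1.53) and missed the call at -0.97, and Eda2r, a p53-induced receptor of the TNF family, was lower at 12.5 against 95.1 CPM (-2.83).

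The called sterol genes were lower in collagen-rich cells, while fatty acid and amino acid genes were called in both directions. Of 24 measured cholesterol and fatty acid synthesis genes, 4 were called lower and 1 higher (median -0.17). The median was 0.22 among micronucleated cells and -1.64 among cells without micronuclei, against 0.45 and -0.57 over all measured genes. The difference between the labels was not tested. Fdft1, the squalene synthase, was at 44.2 against 258 CPM (-2.52), Scd1, a fatty acid desaturase, at 37.6 against 159.5 CPM (-2.06), Mvd at 5.47 against 44.8 CPM (-2.82) and Dhcr7 at 5.33 against 31.1 CPM (-2.34), the last pair acting early and late in cholesterol synthesis. Elovl6, a fatty acid elongase, was higher at 103 against 8.15 CPM (3.50), 80.1% of it from cell without micronuclei 7.

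Collagen is rich in glycine and proline. Of 18 measured genes of amino acid supply, 4 were called higher and 3 lower (median 0.41). Summed per cell the list went the other way by median. It was at 1095 to 3750 CPM (median 1966) in collagen-rich and 368 to 3287 CPM (median 2351) in collagen-poor cells. Only 1 of 10 collagen-rich cells lay above the poor median. Slc38a1, a glutamine transporter, was at 0 to 159 CPM (median 46.5) against 0 to 17.4 CPM (median 0), with 48.5 and 0.984 CPM summed (4.64), and 7 collagen-rich cells lay above every collagen-poor cell. Slc1a4, a carrier of neutral amino acids, was at 143 against 3.51 CPM (5.00, with 90.3% in cell without micronuclei 7) and Eprs, the glutamyl-prolyl-tRNA synthetase, at 194 against 66.6 CPM (1.53). Both chains of a large neutral amino acid exchanger were called lower, Slc7a5 (6.91 against 39.1 CPM, -2.34) and Slc3a2. Slc3a2 was at 0 to 272 CPM (median 124) against 0 to 832 CPM (median 254), a ratio of -1.71 overall and -0.26 among micronucleated cells alone.

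Immune genes were called in both directions, as were 8.29% (higher) and 8.7% (lower) of all measured genes. Of 16 measured interferon-stimulated genes, 1 was called higher and 1 lower (median -0.18), H2-K1, an MHC class I chain, at 77.9 against 8.43 CPM (3.06) and Ifi35 at 10.1 against 55.2 CPM (-2.34). Of 14 measured NF-kB targets, 2 were called higher and 2 lower (median -0.42). The median was 2.03 among micronucleated cells and -1.38 among cells without micronuclei. By the summed list all 5 micronucleated collagen-rich cells lay above the median of the 5 micronucleated collagen-poor cells, and 4 of the latter lay below the lowest of the former. Among cells without micronuclei the summed list did not reverse by median, at 2021 CPM on the rich and 1822 CPM on the poor side. There 3 of 5 collagen-rich cells lay above the poor median. Csf1, the macrophage growth factor, was the broadest of the called NF-kB targets. It was at 24.8 to 2038 CPM (median 573) in collagen-rich and 0 to 958 CPM (median 37.8) in collagen-poor cells. Its summed values were 819.8 and 192 CPM (2.09). Relb, a subunit of NF-kB, was at 14.3 CPM against 0 reads, at least 33.8-fold higher, while Nfkb1 was at 0.432 CPM (0.0891 to 1.26) against 17.7 CPM (14.8 to 21.1). The neutrophil chemokine gene Cxcl5 was at 1.15 against 67.5 CPM (-4.99), with 88.3% of the poor reads in cell without micronuclei 8 and a ratio of 1.91 among micronucleated cells alone. The 13 measured senescence and secretory genes gave 2 called higher (Cdkn2b and Csf1) and 1 lower (Cxcl5). Their median was -0.54 in summed reads and -0.06 with equal weights. Summed per cell the list was higher by median in collagen-rich cells, at 2824 against 2230 CPM, and 8 of these 10 cells lay above the poor median.

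Of 25 measured immediate early and heat shock genes, 3 were called higher and 0 lower (median 0.47). Summed per cell the list was not higher by median, at 5061 CPM in collagen-rich and 5565 CPM in collagen-poor cells. Of the 10 collagen-poor cells 8 lay above the rich median. Among the 8 members read in most cells of each side, 1 had a ratio above 0 (median -0.19). Fos was at 35.7 against 11.9 CPM (1.504) and at 170 CPM in the cells between, so it was not graded along the ranking, and with 14 cells a side its ratio was -1.84. Fosb was at 8.93 CPM (6.85 to 11.4) against 0.141 CPM (0.00356 to 0.783), and Dusp1, a MAP kinase phosphatase, at 69.4 against 3.09 CPM (4.10) and 165 CPM in the cells between. Of 15 measured imprinted genes, 1 was called higher, Dcn, and 3 lower (median -0.48). H19, a maternally expressed RNA, was at 26.4 against 278 CPM (-3.35), of which 70.1% came from cell without micronuclei 1, Peg3 at 52.0 against 212 CPM (-2.01), and Mest had 0 reads in collagen-rich and 57.1 CPM in collagen-poor cells, at least 132-fold lower, with 70.2% of the poor reads in cell without micronuclei 8.

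Many called genes were sparse, so the genes read in most cells were also taken alone, a set chosen after the data were seen. Of 1144 genes with at least 5 reads in 8 or more cells of each side, 13 (1.14%) were called higher and 26 (2.27%) lower. The 13 were Arid5b, Rsrc2, Polr2m, Nid1, 1110004F10Rik, Paip1, Birc6, Ncam1, App, Fn1, Eif4e2, Lox and Tmed10, so 4 of them are matrix or secretory genes already described. They were 2 of 16 broadly read glycoprotein genes, 1 of 6 collagen-modifying genes and 1 of 15 secretory genes. App, the amyloid precursor protein, was at 185 to 768 CPM (median 372) against 0 to 348 CPM (median 115), with all 10 collagen-rich cells above the poor median and 7 collagen-poor cells below the lowest collagen-rich cell (1.58). Ncam1, a neural and mesenchymal adhesion molecule, was at 54.5 to 835 CPM (median 504) against 0 to 519 CPM (median 82.9) (1.58). Arid5b, a chromatin regulator, was at 541 against 136 CPM (1.99).

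Among the 26 lower genes, Cops6, a subunit of the COP9 signalosome, was at 0 to 685 CPM (median 206) against 81.7 to 2203 CPM (median 694), with 193 CPM in collagen-rich cells, 508 CPM in the cells between and 883 CPM in collagen-poor cells (-2.19). Of the collagen-poor cells 9 lay above the rich median and 0 collagen-rich cells above the poor median. Nap1l4, a histone chaperone, was at 36.7 against 274 CPM (-2.87), Cyb5r3, a cytochrome b5 reductase, at 195 against 978 CPM (-2.32), Odc1, which makes polyamines, at 79.2 against 375 CPM (-2.23) and Eif3i, a translation initiation subunit, at 106 against 319 CPM (-1.58). In all 39 genes the ratio had the same sign in the 5 against 5 micronucleated cells and in the 5 against 5 cells without micronuclei, and in 26 it was past 1 in both. In 36 of the 39 the summed CPM of the 15 cells between lay between the values of the sides, and in 36 also without micronucleated cell 10. The call rule itself favours genes that hold in both labels, so these counts are a description.

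**Figure D5:**
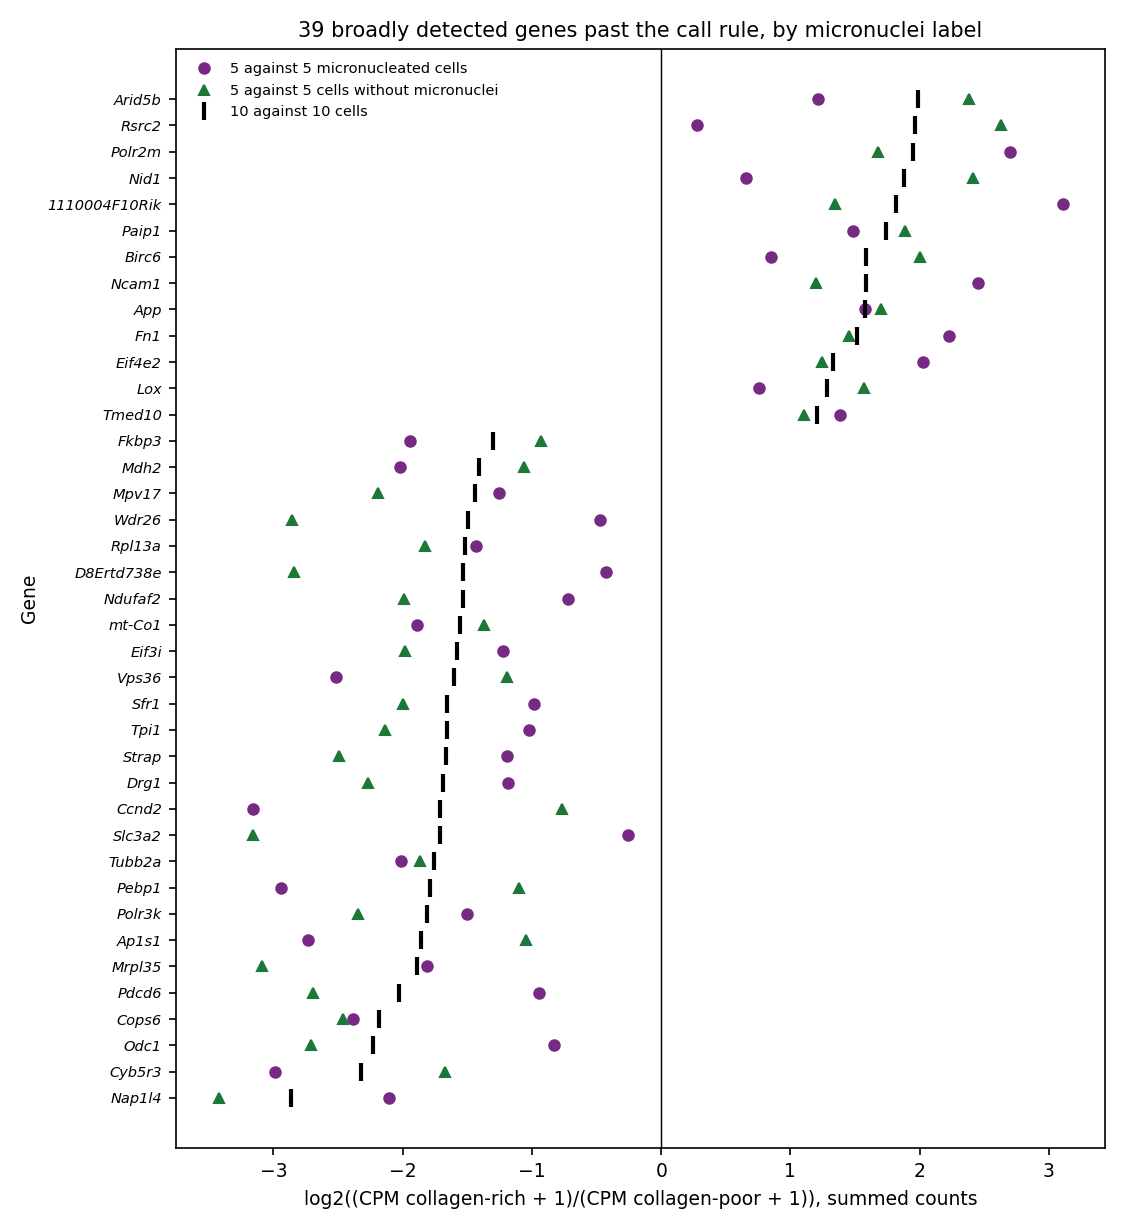
Log2 ratio of collagen-rich over collagen-poor cells for the 39 broadly read genes past the call rule, in all 10 against 10 cells and within each micronuclei label. All 39 keep their sign in both labels, and Slc3a2 (-0.26) and Rsrc2 (0.28) come closest to 0 among micronucleated cells.

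The genes with the largest least ratio were named from those that reached 20 CPM on a side and held 5 or more reads in 50% of that side's cells. The least ratio is the smallest value over the summed reads, equal weights and the 20 leave-outs. Sparser genes such as Col5a3 and Tgfb2, with least ratios of 4.53 and 4.56 but 5 reads in only 4 cells each, fall outside this filter. Higher in collagen-rich cells were Cdk17, Cars2, Coq3, Wdr6, Cbr1, Gga3, Tmem19, Neto2, Atf2, Prmt2, Srpx2 and Slc38a1. Cdk17, a kinase of the CDK family, was at 0 to 221 CPM (median 83.6) against 0 to 15.3 CPM (median 0), with 130.2 and 0.703 CPM summed (6.27) and 7 collagen-rich cells above every collagen-poor cell. Cars2, the mitochondrial cysteinyl-tRNA synthetase, Coq3, an enzyme of ubiquinone synthesis, Gga3, a Golgi sorting adaptor, Neto2 and Srpx2, which encodes a secreted matrix protein, had 0 reads in collagen-poor cells and were at least 166-fold, 102-fold, 64.9-fold, 67.6-fold and 164-fold higher. Cbr1, a carbonyl reductase, reached 20346 CPM in micronucleated cell 5, against 93.5 CPM in the highest collagen-poor cell.

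Among those lower in collagen-rich cells were Smyd4, Dennd5b, Ggct, Qdpr, Glrx, Psmf1, Ctps2, Abcd3, Yeats4, Rgmb and Zfp275. Ggct, an enzyme of glutathione breakdown, had 0 reads in collagen-rich cells and was at least 159.7-fold lower. Glrx, a glutaredoxin, was at 2.45 against 145 CPM (-5.41), Psmf1, a proteasome inhibitor, at 5.33 against 175 CPM (-4.80) and Dennd5b, a Rab exchange factor, at 0.864 against 67.7 CPM (-5.20) with 8 collagen-poor cells above the rich median. Yeats4, a chromatin reader, was at 3.89 against 93.3 CPM (-4.27), with 8 collagen-poor cells above the rich median. Each of the genes named here by this measure was unread in some cells of both sides.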

How the data were processed

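Single-cell libraries of 35 irradiated MEFs were aligned with STAR to GRCm38.p5, per the submitters' processing notes; how reads were counted, and whether by strand, is not given in the sources used. The deposited values are raw read counts for 19085 genes and 62 spike-ins (0 unused columns), of which 827 genes had no read; all cells were used, with no doublet caller, and 0 pairs of cells were identical. The members and gene lists were chosen with earlier results of these data known. Counts were summed per side after ranking by CPM. Measured genes reached 5 CPM in the sum of the 35 cells and had 5 or more reads in 5 or more of them. Genes were named by rule: 12 each way with the greatest least ratio, among genes with 20 CPM on a side and 5 reads in 50% of its cells; up to 3 per list, and every called member where a list had 5 or fewer; and fixed genes given as values. The most abundant list members, the broadly read genes and the called members added to the rule were chosen after their values were seen. Other settings tried were mean log2 CPM, equal weights, scran 1.30.0, TMM (edgeR 4.0.16), totals without mitochondrial reads, 0.1 or 5 CPM added, other filters, thinning, 7 or 14 cells a side, 1 label only and leaving out each cell; leaving out 1 cell between, chosen after seeing the data, was added. Python 3.11.15 and R 4.3.3 were used, and the ratio script was tested on simulated data.

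Without a known strand setting, reads of genes that overlap on opposite strands (GENCODE M21) cannot be told apart, which affects the ranking gene Col5a1 and 1110004F10Rik, Fn1, Nid1, Mfap4, Col4a1, Col4a2, Lox, Loxl2, Colgalt1, Has2, Tgfb2, Kdelr3, Tmed10, Dnajb9, Manf, Pdgfra, Zeb2, Chaf1a, Plk1, Cdkn1a, Ccnd2, Ifi35, Dusp1, Hk1, Tpi1, Bnip3, Car9, Cox4i1, mt-Co1, mt-Nd6, Elovl6, Fdft1, Mest, H19, Ncam1, App, Cyb5r3, Cops6, Birc6, Cdk17, Cars2, Wdr6, Gga3, Neto2, Dennd5b and Qdpr. Reads of H2-K1 can come from near-identical class I genes. Some genes that the naming rule selects are not reported here.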

Additional observations from a re-analysis of the deposited data

Results flagged for a closer look

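In 50 of 292 combinations of a value and a side, 1 cell lay farther from its neighbour than Dixon's 95% critical value allows on the log scale. Chance alone sets apart about 1 group in 20, and sparse genes with most cells at 0 add to this. Micronucleated cell 6 of the poor side gave 15 of the 50. Its score was 21.19, it was at 0 CPM for App, Birc6, Fn1, Rsrc2, Sdhb, Thy1, Tmed10, mt-Co1 and Col1a2, and it was low for Lox (4.539 CPM), Col5a2 (9.078 CPM), Serpinh1 (18.16 CPM) and Rpl3 (40.85 CPM) and high for Dusp1 (49.93 CPM).

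Other collagen-poor cells were set apart less often. Micronucleated cell 19 was high for Ccnb2 (17.39 CPM) and Mcm10 (34.77 CPM) and low for Nid1 (0 CPM) and Sparc (139.1 CPM). Micronucleated cell 15 was high for Cdk17 (15.25 CPM), Fosb (3.813 CPM), Prmt2 (3.813 CPM) and H2-K1 (194.5 CPM). Cell without micronuclei 10 was high for Fmod (15.39 CPM), Lama4 (10.66 CPM), Slc1a4 (27.23 CPM) and Wdr6 (9.472 CPM). Cell without micronuclei 1 was low for Cdkn1a (328.1 CPM) and Cox4i1 (263.2 CPM) and high for Col5a3 (3.707 CPM), and cell without micronuclei 6 was low for Eif3i (41.18 CPM).

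Among collagen-rich cells, cell without micronuclei 5 was low for Col6a3, Odc1 and Polr2m (0 CPM), Mdh2 (92.88 CPM), Ncam1 (54.52 CPM) and Sdhb (40.38 CPM). Cell without micronuclei 7, the deepest library, was at 0 CPM for Cyb5r3 and Tpi1. Cell without micronuclei 14 was low for Rpl3 (225.8 CPM). Micronucleated cell 3 was low for 1110004F10Rik (0 CPM) and Arid5b (14.73 CPM) and high for Qdpr (29.46 CPM). Micronucleated cell 5 was low for Paip1 (0 CPM) and high for Cxcl5 (67.04 CPM) and Osr1 (108.9 CPM). Micronucleated cell 1 was high for Chaf1a (7.097 CPM) and Hk1 (17.74 CPM), micronucleated cell 2 was high for Mki67 (60.20 CPM), and micronucleated cell 13 was low for Postn (1.672 CPM).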

How the results depend on the processing

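No paired analysis was possible because the cell numbers follow accession order only and no result comes from a test. Genes called higher numbered 1484 with mean log2 CPM per cell, 447 with 5 CPM added, 364 under a stricter filter (20 CPM and 10 cells), 1188 after thinning to 100000 reads, 1733 in micronucleated cells only and 13 among broadly read genes. Genes called lower numbered 470 with mean log2 CPM per cell, 424 under the stricter filter, 482 with 14 cells a side, 426 in micronucleated cells only, 1430 in cells without micronuclei only and 26 among broadly read genes. The causes were not tested, except that the stricter filter and the broadly read set tested fewer genes (5526 and 1144). Leaving out each cell gave 608 to 942 higher and 625 to 928 lower. The 10 cells a side were also ranked without each ranking gene, by summed CPM, after thinning and with scran size factors. From 8 to 10 collagen-rich and from 7 to 10 collagen-poor cells then stayed on their side. By summed CPM 9 and 7 stayed. Gene calls were not repeated on these other sides. Of 129 named called genes, 9 changed sign somewhere: Eda2r (0.50) and Sar1b (0.20) with mean log2 CPM, Fos (-1.84), Krt19 (0.078) and Mcm10 (-1.30) with 14 cells a side, Adam10 (-0.18) and Cxcl5 (1.91) in micronucleated cells only, and Lama4 (-0.039) and Lmod1 (-0.054) in cells without micronuclei only. The cause was not tested. A gene with 0 reads on a side is limited by the floor of 3 reads, 0.432 CPM in collagen-rich and 0.422 CPM in collagen-poor cells.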
